A study of Mus musculus with 6 samples.

Results

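The genes described are 10 partners of TRAF3 in the protein complex that links receptors of the tumour necrosis factor family to NF-kB: the adaptors Traf1, Traf2, Traf5 and Traf6, the ubiquitin ligases Birc2 and Birc3, the kinases Map3k14 and Tbk1, the adaptor Tank and the ubiquitin editor Tnfaip3. They were taken by gene symbol from the annotation of the array, which gave 16 probes for the 10 genes, of 16110 genes with a probe. The genes were chosen with earlier results of these data known, so counts among them are a description and no test. All 16 probes passed the filter on dim probes. The samples were B cells from mouse spleen on 6 Illumina bead arrays, 3 labelled TRAF3KO (B cells lacking TRAF3, described as premalignant) and 3 labelled control (normal B cells). The sources used here do not give strain, age or sex of the mice, the deleted part of Traf3, the cells in which it was deleted, or whether each array held RNA of a separate mouse. The p-values thus reflect only variation between these 6 samples, part of which may be technical. No probe carried the symbol Traf3, so the arrays gave no check of the knockout. Control replicate 2 stood apart from the other arrays on the second principal component (-90.7, against -17.8 to 43.3), and values without it are given with the markers and inferred sex.

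In resting B cells, TRAF3 and TRAF2 hold the kinase NIK, the product of Map3k14, close to the ligases cIAP1 and cIAP2, the products of Birc2 and Birc3, which mark NIK for destruction. When CD40 or the BAFF receptor is engaged, or when TRAF3 is missing, NIK protein accumulates and drives processing of the NF-kB precursor p100, which is the non-canonical pathway. This control acts on NIK protein, so a transcript level does not measure it. A20, the product of Tnfaip3, removes and adds ubiquitin chains to end canonical NF-kB signalling, and Tnfaip3, Traf1 and Birc3 are textbook NF-kB target genes. TANK binds TRAFs and the kinase TBK1, which acts in the innate antiviral response.

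In the TRAF3KO cells 4 of the 10 genes rose and 0 fell by limma at an adjusted p under 0.05. By the same rule 2.30% of all 10304 genes passed upward and 2.14% downward, 4.44% in either direction. At an unadjusted p under 0.05, 5 of the 10 were higher and 1 was lower, where 8.35% and 8.55% of all genes were, so the single lower gene is near that share. Traf1 was 2.82-fold higher, Tank 2.05-fold, Birc3 1.78-fold and Tnfaip3 1.59-fold. Traf2 was 1.77-fold higher in the TRAF3KO cells but was not called, and Traf5, Traf6, Birc2, Map3k14 and Tbk1 were not called either. The median log2 difference of the 10 genes was 0.42 (TRAF3KO minus control, the direction of every difference), with a range of -0.25 to 1.50, against a median of 0.00 over all genes tested. In 5 of the 10 genes all TRAF3KO arrays lay above all control arrays, and in 1 they lay below. Over all genes tested these shares were 11.0% and 11.4%. The count of 4 fell to 2 (Traf1 and Tank) with no filter on dim probes and in 5 of the 6 fits with a single array dropped, and to 1 (Traf1) with no trend in the variance model, where 65 of all genes were called.

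**Figure D1:**
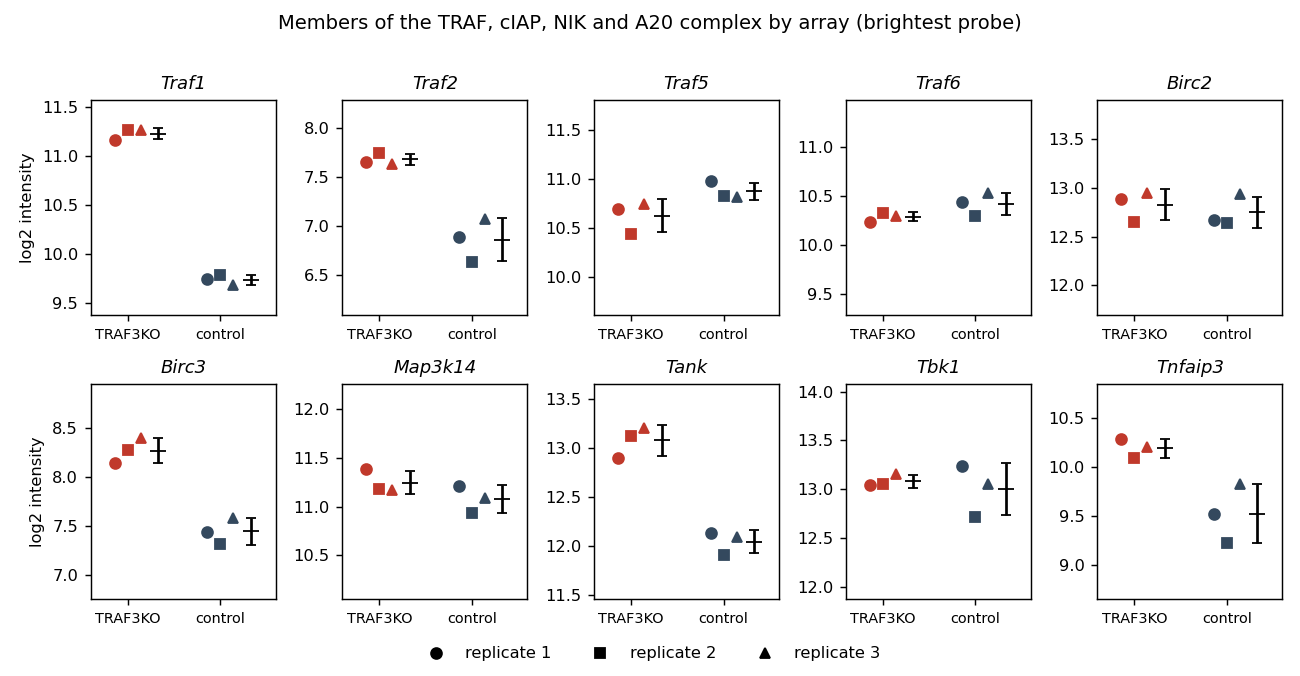
Log2 intensity (y axis) of the brightest probe of each member on each TRAF3KO array (left) and each control array (right), with the marker shape for the replicate number and the bar for the mean and SD of 3 arrays. Every panel spans the same range of log2 values, so differences can be compared between panels but levels of different probes cannot; Traf1, Traf2, Birc3, Tank and Tnfaip3 have groups with a gap between them in which TRAF3KO is higher.

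Traf1 encodes an adaptor without the RING domain of other TRAFs, which joins TRAF2 and the cIAPs at receptors. Its log2 intensity was 11.16, 11.26 and 11.26 on the TRAF3KO arrays, against 9.74, 9.78 and 9.68 on the control arrays. The spread within each group (SD 0.06 in TRAF3KO and 0.05 in control) was far smaller than the gap of 1.38 between the lowest TRAF3KO and the highest control array. The difference was 1.50 ± 0.09 (SE; 95% interval 1.30 to 1.69; limma adjusted p = 9.4e-06), which placed Traf1 at rank 6 by p among the genes tested but at rank 839 by size of difference.

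Traf2 encodes the TRAF that recruits the cIAPs to TRAF3 and NIK. It had log2 intensities of 7.66, 7.75 and 7.64 on the TRAF3KO arrays, against 6.89, 6.63 and 7.07 on the control arrays. The groups did not overlap, but the TRAF3KO arrays spread less (SD 0.06) than the control arrays (SD 0.22). The difference of 0.82 ± 0.22 (SE; 95% interval 0.34 to 1.30) missed the threshold (limma adjusted p = 0.067). It was close in size to that of Birc3, and whether the changes of both genes differ was not tested.

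Traf5, a close relative of TRAF3 that serves CD40 and other receptors, was on the other side. It read 10.70, 10.44 and 10.75 in TRAF3KO, against 10.98, 10.83 and 10.82 in control. All TRAF3KO arrays lay below all control arrays, by 0.08 at the nearest, and the difference of -0.25 ± 0.10 (SE) was not called (limma adjusted p = 0.27). Traf6, the TRAF of the Toll-like and interleukin 1 receptors that also binds CD40, had overlapping groups on each of its 3 probes. The brightest read 10.24, 10.33 and 10.30 in TRAF3KO and 10.44, 10.30 and 10.53 in control, a difference of -0.14 with a 95% interval of -0.35 to 0.08. The other Traf6 probes differed by 0.00 and 0.07 (limma adjusted p = 0.99 and 0.86).

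Birc2 and Birc3 encode cIAP1 and cIAP2, closely related ligases that add ubiquitin to NIK and RIPK1. Their genes are neighbours on mouse chromosome 9 (Birc2 at 7818226 to 7837131 and Birc3 at 7847468 to 7873205 in RefSeq on GRCm38.p6), and their probes are given in turn. Birc3 had 8.14, 8.27 and 8.39 in the TRAF3KO cells, against 7.43, 7.31 and 7.58 in the control cells. The groups were 0.57 apart at the nearest, and Birc3 rose by 0.83 ± 0.18 (SE; 95% interval 0.44 to 1.22; limma adjusted p = 0.026). When each array was left out in turn, Birc3 kept its call only without control replicate 3 and lost it in the other 5 fits, with adjusted p of 0.015 to 0.096 over all alternatives tried.

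For Birc2 the 3 probes, all annotated to the same transcript, did not give the same result. The brightest read 12.88, 12.65 and 12.95 in TRAF3KO and 12.67, 12.64 and 12.93 in control, with overlapping groups and a difference of 0.08 (95% interval -0.14 to 0.30). A dimmer probe read 9.02, 9.09 and 9.20 in TRAF3KO, against 8.55, 8.45 and 8.67 in control. On that probe the groups were 0.35 apart and the difference of 0.55 ± 0.13 (SE) passed (limma adjusted p = 0.047), but it passed in none of the 6 fits with 5 arrays. The remaining probe read 9.16, 9.40 and 9.29 in TRAF3KO and 8.94, 8.98 and 9.06 in control, without overlap, and was not called (difference 0.29, adjusted p = 0.27). With the mean of its probes Birc2 differed by 0.31 and was not called. Which part of the transcript each probe reads, and whether any reads the related Birc3 transcript, was not tested, since probe sequences were not used here.

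Map3k14 encodes NIK, the kinase that TRAF3 keeps low at the protein level. Its transcript read 11.38, 11.18 and 11.17 on the TRAF3KO arrays, against 11.21, 10.93 and 11.09 on the control arrays. The groups overlapped, and the difference of 0.17 (95% interval -0.05 to 0.39; limma adjusted p = 0.45) puts any change of this probe's signal at 1.31-fold higher at most within that interval.

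Tank, which encodes a partner of TRAFs and of TBK1, was higher on all of its 3 probes. The brightest read 12.90, 13.13 and 13.21 in the TRAF3KO cells, against 12.13, 11.91 and 12.09 in the control cells. Every TRAF3KO array exceeded every control array by at least 0.77, and Tank rose by 1.04 ± 0.09 (SE; 95% interval 0.83 to 1.25; limma adjusted p = 1.8e-04, rank 27 by p). The second probe read 10.05, 10.41 and 10.46 in TRAF3KO and 9.34, 9.37 and 9.41 in control, and rose by 0.93 ± 0.13 (SE; adjusted p = 0.0020). The third read 9.85, 9.81 and 10.05 in TRAF3KO and 9.20, 9.08 and 9.32 in control, and rose by 0.70 ± 0.12 (SE; adjusted p = 0.0084). The probes thus gave the same direction with differences whose 95% intervals overlap.

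Tbk1, the kinase that TANK binds, was not called. It read 13.04, 13.05 and 13.16 in TRAF3KO, against 13.24, 12.72 and 13.06 in control. Its control arrays spanned the whole TRAF3KO range, and the difference was 0.08 (95% interval -0.17 to 0.33; limma adjusted p = 0.79), or -0.06 without control replicate 2.

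Tnfaip3, which encodes A20, read 10.28, 10.09 and 10.20 on the TRAF3KO arrays, against 9.52, 9.22 and 9.82 on the control arrays. The TRAF3KO arrays all lay higher, by 0.27 at the nearest, and spread less (SD 0.10) than the control arrays (SD 0.30). Tnfaip3 rose by 0.67 ± 0.15 (SE; 95% interval 0.35 to 1.00; limma adjusted p = 0.030). Tnfaip3 likewise kept its call only without control replicate 3 when single arrays were dropped and lost it in the other 5 fits, with adjusted p of 0.0083 to 0.26 over all alternatives tried.

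**Figure D2:**
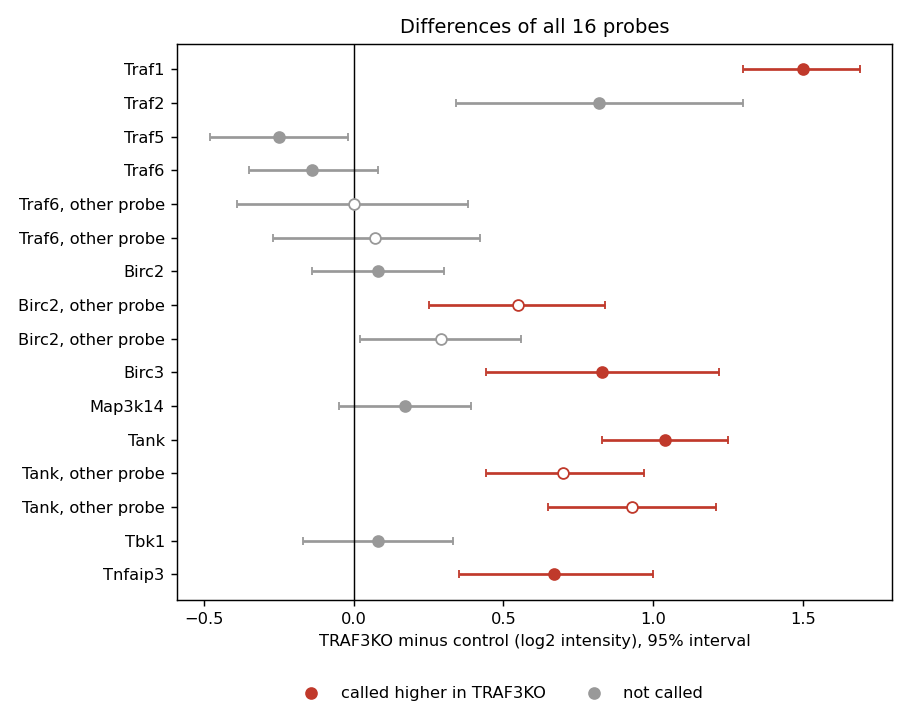
Difference between TRAF3KO and control in log2 intensity (x axis) for all 16 probes, with 95% intervals from limma; filled points are the brightest probe of a gene, open points its other probes, and red marks a probe called higher at an adjusted p under 0.05. Of the 16 probes 7 were called higher and 0 lower, and the 3 Tank probes lie together while the 3 Birc2 probes do not.

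Over probes, 7 of the 16 were called higher in TRAF3KO and 0 lower by limma, where 2.05% and 2.01% of all named probes were called. Promoter windows are shown for Tnfaip3, Tank and Traf1, 3 of the 4 genes that rose, because NF-kB factors bind a 10-base kappa B motif. The window of Birc3, which also rose, is not shown. The windows run from 250 bases before to 50 bases after a transcript start (RefSeq, GRCm38.p6), are written along the gene's strand, and have matches to the kappa B consensus on either strand in capitals.
Tnfaip3, chr10:19015361-19015660, minus strand: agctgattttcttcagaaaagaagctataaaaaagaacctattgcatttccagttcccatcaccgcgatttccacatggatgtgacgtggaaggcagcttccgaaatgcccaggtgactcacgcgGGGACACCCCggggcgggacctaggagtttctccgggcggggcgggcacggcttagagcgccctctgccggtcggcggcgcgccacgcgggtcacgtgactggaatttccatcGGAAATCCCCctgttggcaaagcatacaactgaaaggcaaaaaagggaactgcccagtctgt
Tank, upstream start, chr2:61578307-61578606, plus strand: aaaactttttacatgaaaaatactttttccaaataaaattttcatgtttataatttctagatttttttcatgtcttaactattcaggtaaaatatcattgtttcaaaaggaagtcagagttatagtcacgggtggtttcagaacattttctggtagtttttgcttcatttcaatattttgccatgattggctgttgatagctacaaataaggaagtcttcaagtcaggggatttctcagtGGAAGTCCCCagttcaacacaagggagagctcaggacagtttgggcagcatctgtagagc
Tank, downstream start, chr2:61592847-61593146, plus strand: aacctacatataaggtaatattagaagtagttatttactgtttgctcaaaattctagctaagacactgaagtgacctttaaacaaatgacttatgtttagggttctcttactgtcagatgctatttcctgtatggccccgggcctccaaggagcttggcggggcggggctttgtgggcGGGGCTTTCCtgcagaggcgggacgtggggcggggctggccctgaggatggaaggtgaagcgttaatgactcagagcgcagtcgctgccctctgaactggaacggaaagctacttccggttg
Traf1, chr2:34961723-34962022, minus strand: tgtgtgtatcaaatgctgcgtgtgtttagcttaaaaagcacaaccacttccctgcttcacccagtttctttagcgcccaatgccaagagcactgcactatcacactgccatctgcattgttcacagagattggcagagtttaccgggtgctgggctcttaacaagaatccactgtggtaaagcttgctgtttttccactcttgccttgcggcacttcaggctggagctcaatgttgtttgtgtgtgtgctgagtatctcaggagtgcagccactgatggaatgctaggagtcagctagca
In the Tnfaip3 window shown, one match began 125 bases before the start, where the same letters fit the consensus on both strands. Another began 12 bases before it. The window of a downstream Tnfaip3 start (chr10:19011914-19012213, not shown) held no match. The Tank windows held a match 10 bases before the upstream start and one 72 bases before the downstream start. Traf1 and Birc3, which also rose, had no match in their windows. Windows were found for all 10 genes, and 2 of the 10 had a match (5 of 15 windows, some of which overlap), where 9.6% of 27025 genes and 8.5% of 32851 windows had one. A match is a run of letters and was not tested for binding.

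For each gene that rose, the genes with the most similar profile over the 6 arrays were found by the Euclidean distance between log2 values after subtraction of each gene's mean. Nearest to Traf1 were Kynu (distance 0.203), which encodes kynureninase of tryptophan breakdown, Ahcyl2 (0.240) and Tmem121 (0.252). Nearest to Birc3 were Helz2 (0.150), Pou2af1 (0.158), the B cell coactivator of octamer factors, and Bcl2 (0.195), the anti-apoptotic protein. Nearest to Tank were Grap (0.173), an adaptor of lymphocytes, Helz2 (0.235) and Rasgrp3 (0.243), a Ras activator. Nearest to Tnfaip3 were Eml4 (0.158), Dusp16 (0.211), a phosphatase of MAP kinases, and Hs6st1 (0.212). The distance gives weight to the difference between the groups, and the nearest genes are a description of 6 arrays.

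Genes that work with the complex were divided into 6 lists, none holding a member. The lists were chosen with earlier results of these data known, so their counts are a description and no test. Of their 74 genes 58 were tested, and 7 rose and 2 fell by limma, read against the 2.30% and 2.14% of all genes. The list of NF-kB subunits, IkB proteins and IKK held 5 of the 7, out of 12 tested, with 0 lower and a median difference of 0.30. At an unadjusted p under 0.05, 7 of the 12 were higher and 0 lower, where 8.35% and 8.55% of all genes were. Nfkb2, the precursor p100 on which NIK acts, averaged 9.64 ± 0.11 in TRAF3KO and 7.90 ± 0.37 in control (log2 intensity, SD, n = 3 each; adjusted p = 4.9e-04). Nfkbie, Bcl3, Nfkbia and Relb rose by 0.78, 0.64, 0.59 and 0.57 (adjusted p = 9.3e-04, 0.0087, 7.9e-04 and 0.0070). Of these, Nfkbie and Nfkbia encode inhibitors that hold NF-kB in the cytoplasm, Bcl3 a nuclear IkB protein and RelB the partner of the p100 product. Rela and Ikbkb, the canonical subunit and kinase, differed by -0.14 and -0.17 and were not called. Across the 6 lists, 1 gene was higher with no filter on dim probes and 0 with no trend in the variance model, in place of 7.

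Of 9 tested receptors that bind TRAFs, 1 rose and 1 fell, with a median difference of -0.03. Cd40, the costimulatory receptor that recruits TRAF3, averaged 13.84 ± 0.17 in TRAF3KO and 13.09 ± 0.09 in control (SD, n = 3 each; limma adjusted p = 9.9e-04). Tnfrsf13b, which encodes the BAFF and APRIL receptor TACI, averaged 10.46 ± 0.12 in TRAF3KO and 10.91 ± 0.10 in control (adjusted p = 0.028; the call held in 1 of 6 fits with a single array dropped, that without TRAF3KO replicate 3). Tnfrsf13c, the BAFF receptor, differed by -0.32 and was not called (adjusted p = 0.16, but 0.040 without TRAF3KO replicate 3). The other receptors ranged between -0.44 and 0.49.

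The ubiquitin editing and linear ubiquitin list had 1 of 12 tested genes higher and 0 lower by limma, with a median of -0.05. At an unadjusted p under 0.05, 2 were higher and 1 lower, where 8.35% and 8.55% of all genes were. The gene was Cyld, a deubiquitinase that like A20 restrains NF-kB, with 12.77 ± 0.19 in TRAF3KO and 12.22 ± 0.05 in control (SD, n = 3 each; adjusted p = 0.0084). The A20-binding partner gene Tnip1 differed by 0.28 and was not called (limma adjusted p = 0.059). It passed in 2 of the 15 alternatives (0.045 with a filter at the 60th percentile and 0.049 with an offset of 50). With the mean of its probes Tnip1 differed by 0.16 (limma adjusted p = 0.44). The linear ubiquitin ligase genes Rnf31, Rbck1 and Sharpin differed by -0.01, -0.09 and -0.10, none of them called.

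Among 9 tested relatives of the TRAFs and IAPs, 0 rose and 1 fell by limma (1 and 1 at an unadjusted p under 0.05), with a median of 0.11. Over all genes the unadjusted shares were 8.35% higher and 8.55% lower, against which the unadjusted counts of this paragraph are read. Traf3ip2, which encodes the signalling adaptor ACT1, averaged 10.82 ± 0.07 in TRAF3KO and 11.16 ± 0.04 in control (SD, n = 3 each; adjusted p = 0.046), a call that held in 0 of the 6 fits with a single array dropped. Traf4 differed by 0.36 (adjusted p = 0.054, but 0.033 to 0.042 in 3 of the 15 alternatives) and Traf7 by 0.05, so neither was called. The RIPK1 and TAK1 list had 0 of 6 tested genes called by limma, with 1 at an unadjusted p under 0.05: Map3k7, which encodes TAK1, at 0.67 (adjusted p = 0.24). Its member Tab1, a TAK1-binding protein, differed by -0.13 (adjusted p = 0.59). The list of TBK1 partners had 0 of 10 called, with 1 higher and 1 lower at an unadjusted p under 0.05 and a median of 0.05. The higher gene was Ddx58 at 0.32 and the lower Azi2 at -0.30, each without overlap of the groups (limma adjusted p = 0.22 for each). The largest differences of the list were Tbkbp1 at -1.03 and Ifih1 at -0.68, with SDs of 2.74 and 2.57 over the TRAF3KO arrays. Their means were 4.22 and 2.96 in TRAF3KO and 5.25 and 3.64 in control, where the mean filter level was 3.96. Both differences turned positive when TRAF3KO replicate 1 was left out (0.55 and 0.80).

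**Figure D3:**
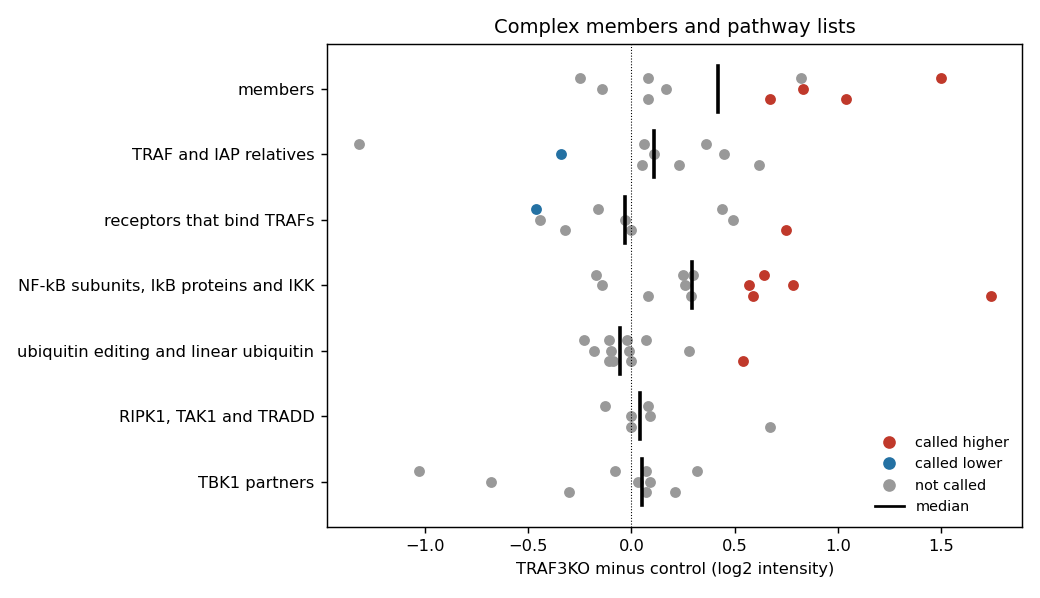
Difference between TRAF3KO and control in log2 intensity (x axis) for the tested genes of the complex (top) and of the 6 lists of genes that work with it, 1 point per gene, with the median of each list as a black bar. Red points were called higher and blue points lower. Of the members 4 of 10 were called higher, and of the NF-kB subunit list 5 of 12. Members and lists were chosen with earlier results of these data known.

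Markers of B cells and of other cell types were read on the same arrays. Calls among them stand beside the 2.30% of all genes called higher and the 2.14% called lower. At an unadjusted p under 0.05 these shares were 8.35% and 8.55%. Cd79a, Cd79b and Blk lay high, with Cd79a and Cd79b near the top of the scale, where a difference between groups cannot be read. Below that level Ms4a1 averaged 11.71 in TRAF3KO and 11.69 in control (log2 intensity), and Pax5 differed by 0.35. Cd22 averaged 12.93 in TRAF3KO and 13.15 in control, with all TRAF3KO arrays below all control arrays, and of the 6 tested B cell markers 0 were called by limma (1, Cd22, at an unadjusted p under 0.05). Summed intensities of the monocyte and macrophage markers were 1140 to 1890 in TRAF3KO and 1760 to 4490 in control, with Lyz2 and C1qc lower (2 of 5 tested). C1qc averaged 2.41 ± 2.54 (SD) in TRAF3KO, under the mean filter level of 3.96, so the size of its difference is uncertain. Cd14 and C1qb differed by -3.90 and -4.16 and were not called. Their TRAF3KO means of 1.37 ± 2.38 and 1.57 ± 2.73 (SD) also lay under the filter level, so these sizes are uncertain too. For Cd14 all TRAF3KO arrays lay below all control arrays (limma unadjusted p = 0.037), and for C1qb the groups overlapped. Adgre1 averaged 10.06 in TRAF3KO and 10.01 in control and was not called. Of 4 tested plasma cell markers Sdc1 fell by 2.22 (adjusted p = 2.4e-04) and Xbp1 rose by 0.48 (adjusted p = 0.0094), while Jchain and Irf4 differed by -0.03 and 0.07 and were not called. Summed intensities of these markers were 11500 to 12600 in TRAF3KO and 9970 to 10600 in control. Most of each sum came from Xbp1 and Irf4 (12.69 and 12.37 in TRAF3KO), so the higher sum mainly repeats the rise of Xbp1. The erythroid marker Car2 fell by 1.03 (adjusted p = 0.033, 1 of 3 tested), while Hba-a1, at 16.05 in TRAF3KO and 16.12 in control, lay near the top of the scale and made up most of sums of 62000 to 71800 in TRAF3KO and 71100 to 71800 in control. The dendritic cell marker Zbtb46 averaged 6.63 in TRAF3KO and was at the array floor in each control sample. It passed the filter on dim probes only through the TRAF3KO arrays, so its call (1 of 4 tested) partly follows from the filter and its difference is a bound. Summed intensities of the dendritic cell markers were 221 to 353 in TRAF3KO and 139 to 249 in control. No marker was called for T cells (sums 72.6 to 132 in TRAF3KO and 101 to 179 in control), neutrophils (48.5 to 124 in TRAF3KO and 60.4 to 321 in control) or NK cells (2750 to 3310 in TRAF3KO and 2500 to 3950 in control). Most of the NK cell sums came from Prf1, at 11.53 in TRAF3KO and 11.52 in control. Klrd1 differed by -1.59, with all TRAF3KO arrays below all control arrays (limma unadjusted p = 0.02). Klrb1c and Gzma differed by 1.73 and 0.94, with overlapping groups. The T cell marker Cd3d differed by -3.41 with overlapping groups (limma unadjusted p = 0.047). Its TRAF3KO mean of 2.14 ± 3.14 (SD) lay under the mean filter level. Cd3e and Cd3g differed by 0.09 and 0.03. Cd8a, Ncr1 and the dendritic marker Itgax lay at the floor on all arrays. The part of such other cells in the differences above was not tested, and in bulk samples fewer cells of a type and less RNA per cell cannot be told apart.

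The arrays also differed by sex, inferred from Xist and Eif2s3y: TRAF3KO replicate 1 and control replicates 1 and 3 read as male and the other arrays as female. Control replicate 2, the only female control, was the lowest control array in 8 of the 10 genes, while it was lowest in 33.1% of all genes tested. Without it Traf1, Tank, Birc3 and Tnfaip3 differed by 1.52, 0.97, 0.77 and 0.52 (limma adjusted p = 8.8e-05, 0.0012, 0.068 and 0.070). Within the male arrays Traf1, Tank, Birc3 and Tnfaip3 differed by 1.45, 0.79, 0.64 and 0.61, and within the female arrays by 1.48, 1.26, 1.02 and 0.93. Each of these comparisons has a single array on one side, and their sign is fixed by the groups not overlapping, so they give sizes only. With inferred sex as a term Traf1, Tank and Tnfaip3 were called and Birc3 was not. Whether the differences depend on sex cannot be decided here, since male TRAF3KO and female control are each represented by a single array.

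**Figure D4:**
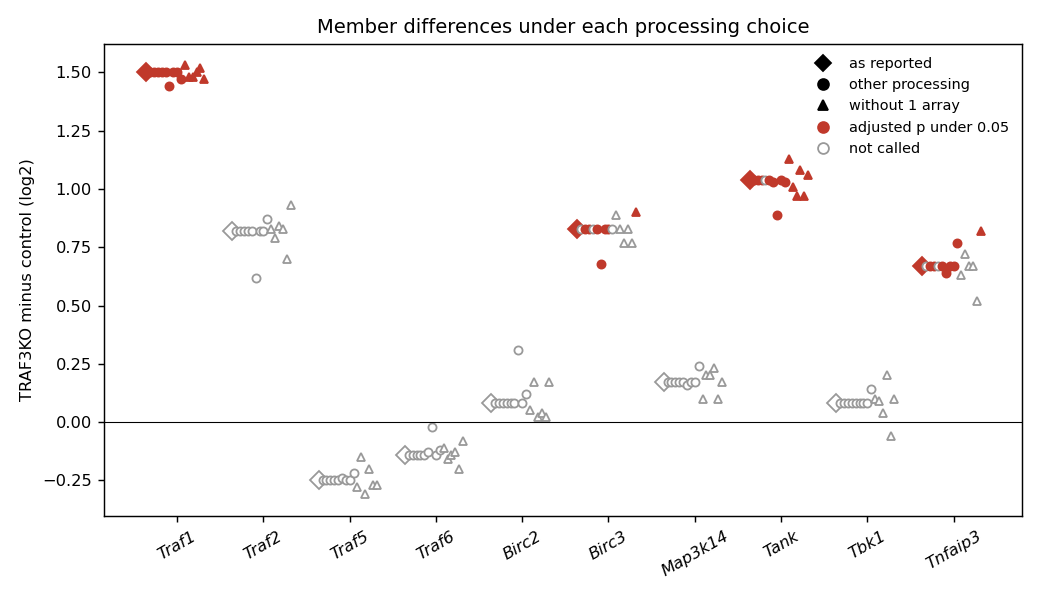
Difference between TRAF3KO and control in log2 intensity (y axis) for each member (x axis) as reported (diamond), under 9 other processing choices (circles) and without each of the 6 arrays in turn (triangles). Red points passed an adjusted p under 0.05 and grey open points did not: Traf1 passed in all, Tank in all except 1, Birc3 in 7 of the 15 alternatives and Tnfaip3 in 8.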

How the data were processed

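RNA was measured on 6 single-colour Illumina arrays, 3 TRAF3KO and 3 control, grouped by the labels' titles. The authors deposited log2 intensities of 25697 probes; the submitters' processing notes name BeadStudio 3.2.3 but give no role for it. The upper quartile is the same on all arrays, and between 8049 and 8065 probes of each array lie at the floor of 0. The sources used here do not say how background, normalisation and floor were handled. Arrays have no read depth; precision is limited by their number.

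Values were used as deposited. A probe was kept when it exceeded its array's 40th percentile (log2 3.96 on average) on 3 or more arrays, which left 15657. They were fitted in R 4.3.3 with limma 3.58.1 (eBayes with a trend), with Benjamini-Hochberg adjustment over all kept probes. A gene was represented by its brightest kept probe and called at an adjusted p under 0.05. Probes took their names from the platform annotation through RefSeq on GRCm38.p6. It gave 1 symbol for 23141 probes; the other 2556 are unnamed here. Promoters came from RefSeq on the same build.

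The members and lists were chosen with earlier results of these data known. Named were all members, the called genes of each list (up to 5, or the 2 largest differences where none was called), Nfkb2, Relb, Nfkbia, Cd40 and Tnfrsf13c, and 3 nearest genes per called member; some further list genes were named after their values were seen. Of the listed genes 10 had no probe with their symbol and 6 had none that was kept. Same-numbered replicates did not deviate together (correlations 0.0440, 0.0425 and 0.0298), so they were not treated as pairs. Alternatives were other filters, quantile normalisation, other variance models, an offset of 50, the mean of probes, the replicate number or inferred sex as a term, and leaving out each array. Tested on simulated data over 10304 genes with 50 changed at each size, the procedure recovered 12%, 56%, 70% and 80% of changes of log2 0.5, 1, 2 and 4 (21.4%, 83.3%, 100% and 100% where the mean was at least log2 8), with 2 false calls of 111.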

Additional observations from a re-analysis of the deposited data

How the results depend on the processing

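Traf1 was called under all 15 alternatives (differences 1.44 to 1.53) and Tank under 14, the exception being eBayes without a trend (adjusted p = 0.058). Birc3 was called in 7 of the 15 and Tnfaip3 in 8, with differences of 0.68 to 0.90 and 0.52 to 0.82. Not all alternatives could change these calls much. Quantile normalisation returned the reported differences and count of 457 genes, since the deposited arrays already share their upper quartile. The mean of probes left the differences of Traf1, Birc3 and Tnfaip3 as they were, since each has a single probe. Traf2 was called in none (lowest adjusted p = 0.051). Of the members, 4 were called higher as reported, 2 with no filter on dim probes, 1 without a trend, and 2 to 4 without any 1 array. The count called lower was 0 in each. Of the other pathway genes 7 were called higher and 2 lower as reported, 1 and 0 with no filter, and 0 and 0 without a trend; over all genes those settings called 114 and 65, against 457. With the replicate block or inferred sex as a term 1 pathway gene was lower, as Traf3ip2 lost its call. The replicate block called 468 genes, the same 4 members among them; among the members and the 22 other pathway genes refitted it otherwise changed only the call of the dimmer Birc2 probe. Without 1 array, 7 pathway genes in each fit were higher and 0 to 2 lower. Among those genes, leaving out 1 array turned the direction of uncalled values only: Tbk1 (-0.06 to 0.20, turned without control replicate 2), the dimmer Traf6 probes (-0.13 to 0.12, turned in 3 fits, and -0.04 to 0.16, turned in 1), Tbkbp1 (-1.93 to 0.55, turned without TRAF3KO replicate 1), Ifih1 (-1.97 to 0.80, turned without TRAF3KO replicate 1 or control replicate 3), Traf7 (-0.02 to 0.10, turned in 1) and Rnf31 (-0.08 to 0.07, turned in 3, and 0.05 with inferred sex as a term). Marker genes, nearest genes, Ddx58 and Azi2 were not refitted. The causes of these changes were not tested, though a fit without 1 array holds fewer samples.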
